A study of Mus musculus with 10 samples.

Results

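The genes described here are the chaperones, folding enzymes, stress sensors and degradation factors of the endoplasmic reticulum (ER) that make up the core of the unfolded protein response. A list of 34 genes was fixed by name, and for each gene the transcript with the highest mean RNAseq count was used. Of the 34 genes, 26 had a transcript in the count files, out of 22534 transcripts in all, and 21 of those passed the filter described below. Hspa5, Hsp90b1, Canx, Xbp1, Dnajc10, Sdf2l1, Sil1 and Creb3 had no transcript in these counts and are not analysed here, so the set lacks BiP (Hspa5), the most abundant ER chaperone, and Xbp1, the transcription factor that Ern1 activates by splicing.

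The cells were primary cortical cultures of newborn (P0) FVB mouse pups of both sexes, a mixture of neurons and glia, kept for 7 days in vitro. Cultures 1, 2 and 3 were left untreated, and cultures 4 and 5 were depolarized with 55 mM KCl for 3 h. All 5 cultures received cycloheximide before lysis, and each lysate gave an RNAseq library, for transcript abundance, and a ribosome footprinting (RF) library, for ribosomal occupancy of the coding sequence (CDS), 10 libraries in all. The comparison asks how depolarization altered transcript abundance, ribosomal occupancy and translation efficiency (TE), the ratio of CDS RF to RNAseq per length.

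The ER folds secreted and membrane proteins. Hsp70 and Hsp90 class chaperones hold nascent chains, the lectin chaperones calreticulin and calnexin hold glycoproteins, and protein disulfide isomerases form and shuffle disulfide bonds. When unfolded protein accumulates, the sensors Ern1 (IRE1α), Atf6 and Eif2ak3 (PERK) raise transcription of these genes and slow bulk translation, and misfolded protein is extracted to the cytosol and destroyed by ER-associated degradation (ERAD). In neurons and astrocytes the ER is also the main calcium store.

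The ER stress response elements of these promoters are the sequences through which Atf6 and spliced Xbp1 act, and they are shown because 10 of the 28 members with a promoter entry held one. In the RefSeq promoter windows (GRCm38.p6, 300 bases per gene start, 28 of 34 members matched, Ero1l under the name Ero1a), the ER stress element ERSE (the blocks CCAAT and CCACG with 9 bases between them, both strands searched) was found in 8 members and in 37 of 27025 genes (0.137%). The shorter ERSE-II (ATTGG and CCACG with 1 base between them) was found in 2 members and in 12 genes (0.0444%). The elements of the genes that were measured, and that of Hspa5, read 5′ to 3′ on the strand of the gene, with the 2 blocks of each element in capitals:
Herpud1, ERSE-II (chr8:94386372-94386392, plus strand): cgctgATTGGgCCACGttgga
Dnajb11, ERSE-II (chr16:22857847-22857867, plus strand): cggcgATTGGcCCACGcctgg
Pdia6, ERSE (chr12:17266486-17266514, plus strand): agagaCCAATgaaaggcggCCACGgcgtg
Dnajc3, ERSE (chr14:118937822-118937850, plus strand): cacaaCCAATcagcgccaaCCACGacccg
Syvn1, ERSE (chr19:6046527-6046555, plus strand): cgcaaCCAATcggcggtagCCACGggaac
Calr, ERSE in the opposite orientation (chr8:84847070-84847098, minus strand): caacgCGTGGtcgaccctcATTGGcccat
Creld2, ERSE in the opposite orientation (chr15:88819515-88819543, plus strand): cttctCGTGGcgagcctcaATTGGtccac
Hspa5, ERSE (chr2:34772020-34772048, plus strand): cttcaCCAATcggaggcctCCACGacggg

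Hsp90b1 and Canx held the other ERSE matches. The Dnajb11 match lay 7 to 17 bases downstream of the gene start, and the matches of the other members lay upstream of theirs. The UPR element UPRE (TGACGTGG, found in 0.714% of genes) and the cAMP response element CRE (TGACGTCA, found in 2.03% of genes) were found in none of the 28 members. Atf6, Hyou1, Manf, Derl1, Sec61a1 and Sil1 had no entry. A match is a description of letters in this window and says nothing of whether a factor was bound.

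RNAseq libraries held between 3056286 and 3629959 reads on transcripts, and RF libraries between 1463654 and 7719915, with the fewest RF reads in cultures 3 and 4. Levels between genes were compared as RPKM, reads divided by annotated length and by library total. A transcript passed if at least 2 cultures each had 10 RPKM or more in both RNAseq and RF. The filter was passed by 7258 transcripts, and 4235 genes passed it with their most abundant transcript.

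In untreated cultures several ER folding enzymes were among the transcripts with high ribosomal occupancy, while the oxidase Ero1l (29.1 RPKM) and Creld2 (33.7 RPKM) lay below the median of all genes in RF (39.0 RPKM). Calr, the calcium-binding lectin chaperone calreticulin, had 123 ± 17.7 RPKM in RNAseq and 554 ± 32.3 RPKM in RF (SD, n = 3), above 98.4% of the 4235 genes in RF. Pdia3, the disulfide isomerase that works with calreticulin on glycoproteins, had 65.5 ± 15.5 RPKM in RNAseq and 496 ± 21.4 RPKM in RF (SD, n = 3). P4hb, the founding protein disulfide isomerase, had 95.6 ± 5.28 RPKM in RNAseq and 294 ± 3.94 RPKM in RF. The least abundant members were the signalling and mannosidase-like genes, and the sensor Ern1 had 2.46 ± 0.05 RPKM in RNAseq and 4.68 ± 0.58 RPKM in RF.

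**Figure D1:**
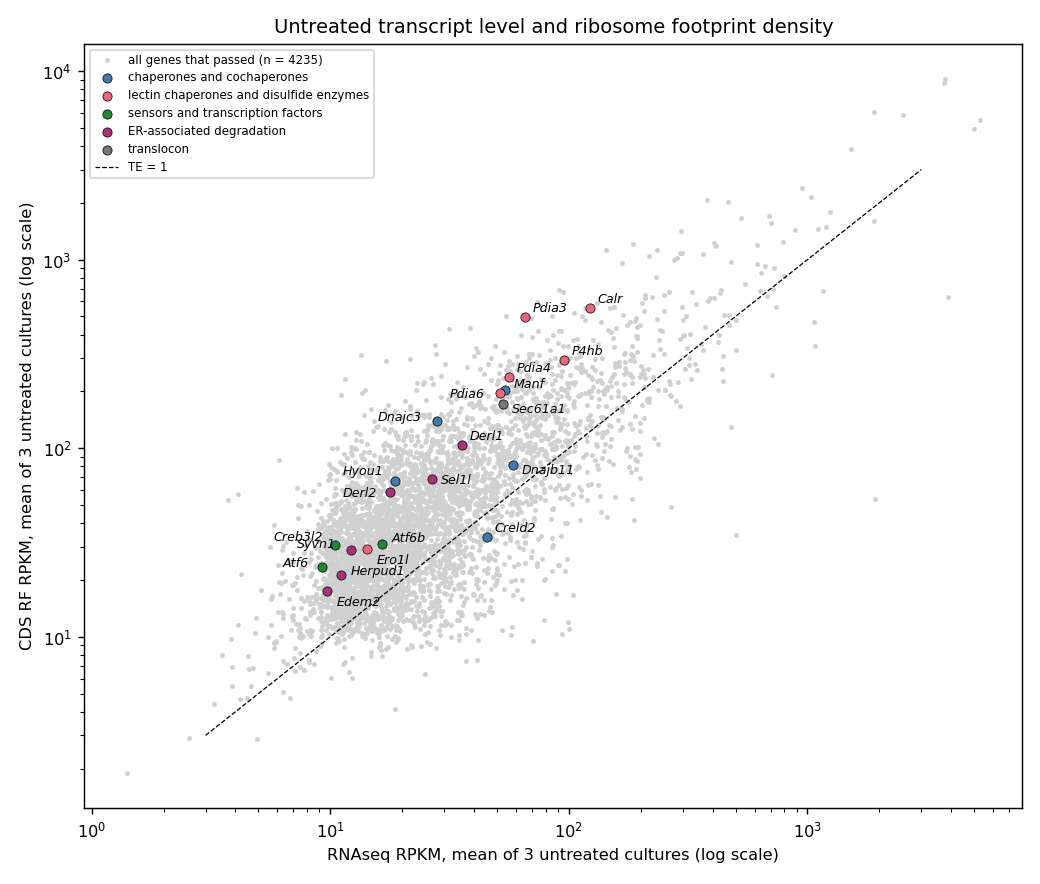
Transcript level (RNAseq RPKM, x axis) against ribosomal occupancy (CDS RF RPKM, y axis), both on log scales, as means of the 3 untreated cultures for 4235 genes in grey and the 21 members that passed the filter in colour by role; the dashed line marks a TE of 1. Of the 21 members, Creld2 alone lies below the line, and Pdia3 and Calr lie highest in RF.

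Ribosomes were dense on most of these transcripts. Among the 24 members with CDS footprints in untreated cultures, the median was 22.8 RPKM in RNAseq, 63.1 RPKM in RF and 2.92 in TE, against 21.9 RPKM, 39.0 RPKM and 1.70 over all 4235 genes. The 24 include Ern1, Edem1 and Edem3, which did not pass the filter, while all 4235 genes did. The median TE of the 21 members that passed was 3.00. Of these 21 members, 12 lay above the median of all genes in RNAseq, 13 in RF and 19 in TE. All 6 lectin chaperones and disulfide enzymes that passed were above it in TE, with a range from 2.11 for the thiol oxidase Ero1l to 7.81 ± 1.51 (SD, n = 3) for Pdia3. Dnajc3, the Hsp40 cochaperone p58IPK, followed with a TE of 5.06 ± 1.08, Calr with 4.58 ± 0.96 and Pdia4 with 4.23 ± 0.28, and these 3 neighbours did not differ beyond their spread. The exceptions were the BiP cochaperone Dnajb11, with a TE of 1.42 ± 0.19, and Creld2, a secreted ER stress protein, with 0.756 ± 0.11. Annotated 5′UTRs were 131 nt long in the median of the 26 members, and 8 of the 26 (30.8%) held an upstream AUG, compared with 177 nt and 47% of the 4235 genes.

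These TE values depend on which part of the transcript the RNAseq reads covered. Over the 24 members with CDS footprints in every untreated culture, the CDS took between 87.8% and 99.9% of RF reads, but between 15% and 89.6% of RNAseq reads. Pdia3 had 0.794% of its RNAseq reads on its annotated 3′UTR of 988 nt, and the mannosidase-like Edem2 had 0 reads on its annotated 3′UTR of 418 nt. With RNAseq taken over the CDS alone, TE was 4.92 ± 1.03 for Pdia3, 8.73 ± 1.15 for Calr, and 1.76 ± 0.25 for the secreted ER protein Manf, which had 3.81 ± 0.48 over the whole transcript. On that scale Dnajb11 was at 2.29 ± 0.55, Dnajc3 at 3.08 ± 0.59 and Derl2 at 1.73 ± 0.36, against 3.34 ± 0.34 for Derl2 over the whole transcript. Syvn1, at 1.82 ± 0.11, and Edem2, at 1.55 ± 0.28, also had lower means there than Dnajb11. The median of the members was 3.21. No median of all genes was taken on that scale, so whether the members lay above it there was not tested.

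**Figure D2:**
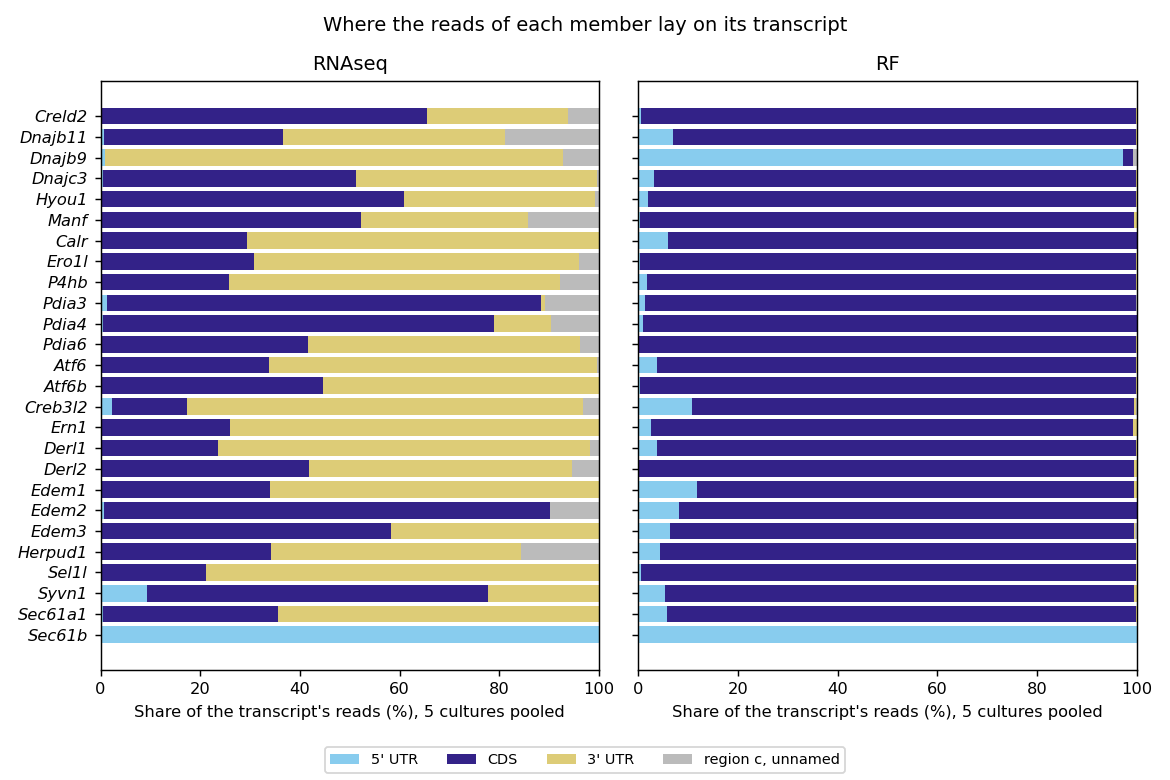
Share of each member's reads (%) on the 5′UTR, CDS, 3′UTR and a region without a name in the files, with the 5 cultures pooled, for RNAseq (left) and RF (right) and all 26 members in the counts. RF bars are almost wholly CDS except for Dnajb9, with 97.3% on the 5′UTR, and Sec61b, whose reads all lie on the 5′UTR. Both genes also had 0 RNAseq reads on the CDS. Their RF bars therefore do not show how ribosomes were spread between 5′UTR and CDS.

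KCl depolarization was followed by changes in a minority of the members, in both directions. In RNAseq, 4 of the 21 members tested rose (Herpud1, Derl1, Atf6 and Calr) and 2 fell (Edem2 and Creb3l2), which is 28.6% called, beside 33% of the 4235 genes with 1 transcript each (17.5% higher and 15.5% lower). In RF, 6 rose (Herpud1, Atf6, Derl1, P4hb, Pdia3 and Pdia6) and 3 fell (Edem2, Syvn1 and Creb3l2), which is 42.9%, beside 40.6% of all genes (21.2% higher and 19.4% lower). Both shares were near the background. In RNAseq, 5 of the 21 members had both KCl cultures above all untreated cultures and 6 had both below, beside 27.5% and 28% of the 4235 genes. In RF, 10 had both above and 5 both below, beside 30.7% and 30.2% of the genes. The median log2 fold change of the members was 0.04 in RNAseq and 0.08 in RF, and that of all genes was -0.01 and 0.00. Calls were made at an adjusted p under 0.05, and the p-values measure only the spread between these cultures.

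The split depended on the scaling. With library totals in place of TMM, which moved the median of all genes to -0.10 in RNAseq and -0.14 in RF, 2 members rose and 4 fell in RNAseq, and 3 rose and 4 fell in RF. Edem2 and Creb3l2 passed the filter in 2 untreated and 0 KCl cultures, Syvn1 in 3 untreated and 0 KCl cultures, and Atf6 in 1 untreated and 2 KCl cultures, so the filter itself favoured their direction. In bulk cultures, fewer cells of a type and less RNA per cell cannot be told apart. The summed RNAseq level of 9 astrocyte markers was between 13742 and 14574 normalised CPM in untreated and 11457 and 11749 in KCl cultures, the 8 neuronal markers in the counts summed to between 533 and 794 in untreated and 679 and 750 in KCl cultures, and none of those markers was at 0. Of the 9 astrocyte markers, 4 fell in RNAseq and 0 rose, while 4 rose and 1 fell in RF. Microglial markers summed to between 235 and 248 in untreated and 193 and 221 in KCl cultures, oligodendrocyte lineage markers to between 1571 and 1688 and to 1504 and 1502, and fibroblast and vessel markers to between 538 and 647 and to 582 and 521. The neuronal markers Map2 and Dcx are not analysed here. The part of cell composition in the changes below was not tested.

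**Figure D3:**
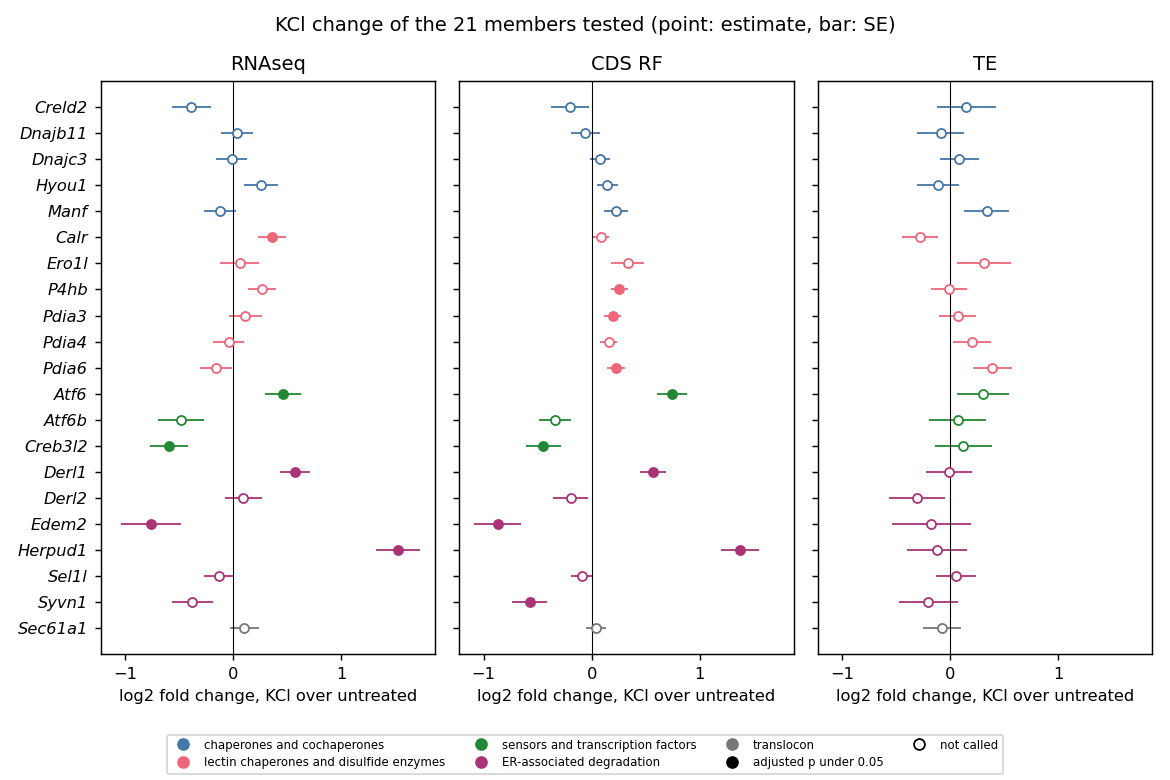
Log2 fold change of KCl over untreated cultures for the 21 members tested, grouped by role, in RNAseq, CDS RF and TE; points are edgeR estimates, bars are 1 SE, and filled points passed an adjusted p of 0.05. Herpud1 stands farthest to the right in RNAseq and RF, Edem2 farthest to the left, and no TE point is filled.

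Among the 21 members tested, the largest change was in ERAD. Herpud1, a ubiquitin-like membrane protein that gathers the ERAD ligase complex, lies on chr8:94386438-94395377 (plus strand, 8 exons). Its RNAseq level was 28.4, 24.2 and 29.4 normalised CPM (CPM over the tested transcripts, scaled with TMM factors) in untreated cultures 1, 2 and 3, and 62.1 and 95.3 in KCl cultures 4 and 5. Both KCl cultures lay above all 3 untreated cultures, and they differed from each other by more than the untreated cultures did. Transcript abundance rose 2.88-fold (log2 fold change 1.53, SE 0.20, adjusted p = 1.02e-07). Its RF level was 40.2, 32.3 and 28.1 normalised CPM in untreated and 110 and 75.6 in KCl cultures, again without overlap. Ribosomal occupancy rose 2.58-fold (log2 fold change 1.37, SE 0.18, adjusted p = 5.55e-07), and TE, at -0.12 (SE 0.27) on the log2 scale, was not called. The second Herpud1 transcript in the counts had values of 1.52 in RNAseq and 1.32 in RF. Multi-mapped reads were kept, so transcripts of a gene may share reads and these values are not independent.

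Derl1, a channel-forming rhomboid pseudoprotease of the retrotranslocation complex, rose in both assays. It had 149.9, 147 and 132 normalised CPM in untreated and 217 and 210.1 in KCl cultures in RNAseq, and 103, 97.3 and 117 in untreated and 153 and 155 in KCl cultures in RF. The groups did not overlap in either assay, and the KCl cultures lay close together. The log2 fold change was 0.58 (SE 0.14, adjusted p = 0.00123) in RNAseq and 0.57 (SE 0.12, adjusted p = 0.000398) in RF. Its relative Derl2 was not called, with 0.09 (SE 0.17) in RNAseq and -0.20 (SE 0.16) in RF.

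Edem2, which starts mannose trimming of misfolded glycoproteins, fell. Its RNAseq level was 21, 31.6 and 31.5 normalised CPM in untreated and 12.3 and 20.5 in KCl cultures. Its RF level was 36.4, 37.2 and 48.7 in untreated and 24.9 and 19.0 in KCl cultures. Both KCl cultures were below all untreated cultures, by a narrow margin in RNAseq. The log2 fold change was -0.76 (SE 0.28, adjusted p = 0.0322) in RNAseq and -0.87 (SE 0.22, adjusted p = 0.00201) in RF. The RNAseq values rested on 54, 81 and 77 reads in untreated and 30 and 56 in KCl cultures. The RNAseq call was lost under 8 of 14 alternatives. These were DESeq2 (adjusted p = 0.0771), no filter beyond 1 read (0.0541), filterByExpr (0.0553) and reads on the CDS alone (0.0592), and the fits without untreated culture 2 (-0.66), untreated culture 3 (-0.67), KCl culture 4 (-0.45) or cultures 3 and 4 together (-0.36). The RF call was lost without KCl culture 5 (-0.64).

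Syvn1, the ubiquitin ligase HRD1 at the centre of ERAD, fell in RF alone. It had 72.9, 65.2 and 75.8 normalised CPM in untreated and 51.6 and 44.5 in KCl cultures, with no overlap, and a log2 fold change of -0.57 (SE 0.16, adjusted p = 0.00544). Without KCl culture 5 it was -0.45 and not called. Its RNAseq level was 49.8, 55.4 and 54.8 in untreated and 39.9 and 42.2 in KCl cultures, with -0.38 (SE 0.19, adjusted p = 0.131), and whether RNAseq and RF differed is given by TE, which was not called at -0.20 (SE 0.27). Sel1l, the adaptor that holds HRD1 in its complex, was not called in RNAseq (-0.13, SE 0.14) or RF (-0.09, SE 0.10).

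The lectin chaperones and disulfide enzymes moved little. Calr (chr8:84841850-84846934, minus strand, 9 exons) had 289.6, 345 and 382 normalised CPM in untreated and 414 and 455 in KCl cultures in RNAseq. The KCl cultures were above the untreated ones, which spread over a wide range. Its abundance rose by 0.36 (SE 0.13, adjusted p = 0.0303) on the log2 scale. The call was lost under 8 of 14 alternatives, among them each fit without untreated culture 1 (0.25), untreated culture 2 (0.37), KCl culture 4 (0.42) or KCl culture 5 (0.29). It was also lost after scaling to library totals (0.27, adjusted p = 0.112), with transcripts summed per gene (adjusted p = 0.0572) and with reads on the CDS alone (adjusted p = 0.154). In RF, Calr had 988, 898 and 910.2 in untreated and 983 and 995 in KCl cultures, which overlapped, with 0.08 (SE 0.08, adjusted p = 0.42).

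P4hb, Pdia3 and Pdia6, which are disulfide isomerases, rose in RF by small amounts. P4hb had 609.6, 596 and 609 normalised CPM in untreated and 723 and 719.6 in KCl cultures, and rose by 0.25 (SE 0.08, adjusted p = 0.0115) on the log2 scale. Pdia3 had 1026, 1033 and 981 in untreated and 1154 and 1169 in KCl cultures, and rose by 0.19 (SE 0.08, adjusted p = 0.0427). Pdia6 had 356, 336 and 371 in untreated and 418 and 407 in KCl cultures, and rose by 0.22 (SE 0.09, adjusted p = 0.041). In all 3 genes the KCl cultures lay above the untreated ones, and the largest of the changes, that of P4hb, was 1.19-fold. With library totals in place of TMM the values were 0.12, 0.06 and 0.09 and none was called. All 3 calls were lost without KCl culture 4 (0.25, 0.20 and 0.21) or KCl culture 5 (0.26, 0.19 and 0.24), those of Pdia3 and Pdia6 also without untreated culture 1 (0.20 and 0.23), that of Pdia6 without untreated culture 2 (0.19) and that of Pdia3 without untreated culture 3 (0.17). All 3 were lost in a fit of all 10 libraries (adjusted p = 0.0643, 0.205 and 0.127), and those of Pdia3 and Pdia6 also by DESeq2 (0.0596 and 0.0925), with 1 transcript per gene (0.0681 and 0.0637) and with transcripts summed per gene (0.0778 and 0.101). In RNAseq, P4hb was at 0.27 (SE 0.13), Pdia3 at 0.11 (SE 0.15) and Pdia6 at -0.16 (SE 0.15), and none was called. Pdia4 and Ero1l were called in neither assay, with 0.16 (SE 0.08) and 0.33 (SE 0.15) in RF.

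Among the sensors, Atf6, a membrane-bound transcription factor that is cleaved in the Golgi to release its active part, rose in both assays. It lies on chr1:170704674-170867771 (minus strand, 16 exons). Its RF level was 57.7, 66.6 and 62.7 normalised CPM in untreated and 99.6 and 107 in KCl cultures. The groups were well apart, and occupancy rose 1.67-fold (log2 fold change 0.74, SE 0.14, adjusted p = 0.000106). Its RNAseq level was 102.8, 76.5 and 73.6 in untreated and 130 and 102.7 in KCl cultures. Untreated culture 1 reached the level of KCl culture 5, and the log2 fold change was 0.46 (SE 0.17, adjusted p = 0.0311). The RNAseq call was lost without untreated culture 2 (0.39), untreated culture 3 (0.37) or KCl culture 4 (0.28), after scaling to library totals (0.36), by DESeq2 (0.46, adjusted p = 0.0695) and with reads on the CDS alone (0.38, adjusted p = 0.25).

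Creb3l2, a relative of Atf6 that drives secretory pathway genes and is also cleaved from the membrane, fell. It had 80.2, 110 and 89.2 normalised CPM in untreated and 58.4 and 64.9 in KCl cultures in RNAseq, and 61.1, 63.6 and 70.2 in untreated and 45.4 and 47.8 in KCl cultures in RF. The groups did not overlap in either assay. The log2 fold change was -0.60 (SE 0.18, adjusted p = 0.0075) in RNAseq and -0.45 (SE 0.16, adjusted p = 0.0273) in RF. The RNAseq call was lost without untreated culture 2 (-0.46) or KCl culture 4 (-0.53), and with reads on the CDS alone (adjusted p = 0.087). The RF call was lost without untreated culture 3 (-0.41), KCl culture 4 (-0.42) or KCl culture 5 (-0.50), and also by DESeq2 (adjusted p = 0.0956), with no filter beyond 1 read (0.0979) and with filterByExpr (0.0746). Atf6b, the Atf6 paralogue, had -0.48 (SE 0.21, adjusted p = 0.0759) in RNAseq and -0.34 (SE 0.15, adjusted p = 0.0641) in RF. It was called lower after scaling to library totals (-0.58 and -0.48) and with transcripts summed per gene (-0.53 and -0.35). In RNAseq it was also called lower without untreated culture 1 (-0.65) and in a fit of all 10 libraries (-0.48). In RF that was so without untreated culture 2 (-0.38). The other settings run, DESeq2 among them, did not call it.

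None of the 5 chaperones and cochaperones that passed the filter was called in any assay in the main edgeR fit or by DESeq2. Hyou1 (the Hsp70-like GRP170), Dnajb11 and Dnajc3 (Hsp40 cochaperones), Manf and Creld2 had log2 fold changes between -0.39 and 0.26 in RNAseq and from -0.20 to 0.22 in RF. At an unadjusted p under 0.05, 1 of the 5 passed in RNAseq (Creld2, -0.39, SE 0.18, adjusted p = 0.103) and 0 in RF. Creld2 was called lower in RNAseq after scaling to library totals (-0.48) or without untreated culture 1 (-0.50), and Manf was called higher in RF with edgeR's filterByExpr in place of the RPKM filter (0.29). The channel subunit Sec61a1, through which nascent chains enter the ER, had 0.10 (SE 0.13) in RNAseq and 0.04 (SE 0.09) in RF and was not called either. The SE of Dnajc3 in RF was 0.09, and that of Hyou1 0.10.

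**Figure D4:**
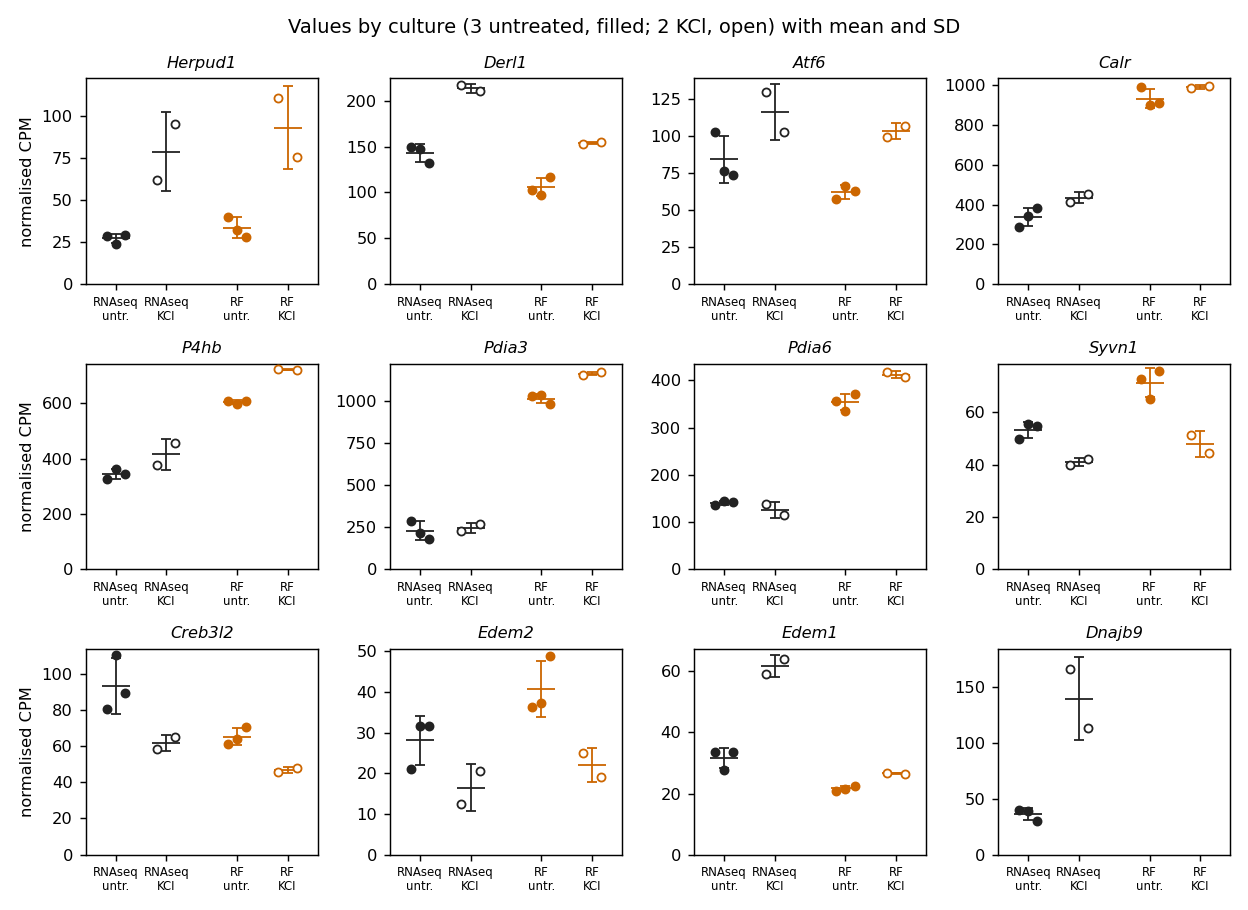
Normalised CPM in each culture for the 10 members called in the tested set and for Edem1 and Dnajb9, which were outside the filter; filled points are the 3 untreated cultures, open points the 2 KCl cultures, and lines are the mean and SD, with RNAseq in black, CDS RF in orange and no RF drawn for Dnajb9. KCl cultures stand above untreated cultures in Herpud1 and Derl1 and below them in Syvn1 and Creb3l2 in both assays.

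TE was called for 0 of the 21 members by edgeR, beside 5.9% of the 4235 genes, and for 0 by DESeq2. The log2 changes of TE lay between -0.31 and 0.39 with adjusted p between 0.238 and 0.985, and the SE of these changes lay between 0.17 and 0.36. At an unadjusted p under 0.05, 1 member passed: Pdia6, with TE of 4.03, 3.59 and 3.84 in untreated and 4.58 and 5.30 in KCl cultures. The KCl cultures were above the untreated ones, and the log2 change was 0.39 (SE 0.18, unadjusted p = 0.0331, adjusted p = 0.238). For Herpud1, TE was 2.23, 2.10 and 1.44 in untreated and 2.74 and 1.21 in KCl cultures, a spread between the KCl cultures wider than that of the untreated ones.

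The members that hold an ER stress element did not share 1 direction. Of the 8 with ERSE, 5 were tested, of which 1 rose in RNAseq (Calr), and 1 rose (Pdia6) and 1 fell (Syvn1) in RF, where 33% and 40.6% of all genes were called. Syvn1 had passed the filter in untreated cultures alone. Of the 2 with ERSE-II, Herpud1 rose in both assays and Dnajb11 was called in neither.

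Outside the filter were Dnajb9, Edem1, Edem3, Ern1 and Sec61b, for which a fit of all 21694 transcripts with reads was used. In that fit, 18.9% of transcripts were called in RNAseq and 24.2% in RF. Its edgeR p-values were smaller at a like SE. For Herpud1 in RNAseq the unadjusted p was 2.65e-15 (SE 0.20), against 3.52e-09 (SE 0.20) in the filtered fit. The p-values below are therefore not comparable with those above, and very small ones overstate what so few cultures can show. Dnajb9, the Hsp40 cochaperone ERdj4 that binds Ern1, had 40.1, 39.0 and 29.9 normalised CPM in untreated and 166 and 113 in KCl cultures in RNAseq. Both KCl cultures were far above the untreated ones, and transcript abundance rose 3.98-fold (log2 fold change 1.99, SE 0.18, adjusted p = 2.42e-27). All the same, 0 of its RNAseq reads lay on its annotated CDS and 92% lay on the 3′UTR (90, 94 and 65 reads in untreated and 377 and 284 in KCl cultures), and its CDS held 0, 0 and 0 footprints in untreated and 1 and 4 in KCl cultures, so its ribosomal occupancy and TE could not be measured.

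Edem1, a mannosidase-like ERAD factor induced through Xbp1 in other systems, had 33.5, 27.7 and 33.5 normalised CPM in untreated and 59.2 and 64.2 in KCl cultures in RNAseq. The groups were well apart, and abundance rose 2.03-fold (log2 fold change 1.02, SE 0.21, adjusted p = 1.43e-05). In RF it had 21, 21.5 and 22.5 in untreated and 26.7 and 26.4 in KCl cultures, with 0.37 (SE 0.24, adjusted p = 0.283), and TE was at -0.68 (SE 0.33, adjusted p = 0.421). Edem3, the third of the family, was not called, with 0.29 (SE 0.18) in RNAseq and 0.29 (SE 0.15) in RF. In the same fit of all transcripts, Edem2 was at -0.70 (adjusted p = 0.0541) in RNAseq and was not called, and the difference between Edem1 and Edem2 was not tested.

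Ern1, the kinase and nuclease that splices Xbp1, had 21.8, 21.1 and 21.7 normalised CPM in untreated and 21.8 and 25.3 in KCl cultures in RNAseq, which overlapped (0.19, SE 0.27, adjusted p = 0.712). In RF it had 17.0, 17.1 and 21.5 in untreated and 10.7 and 9.28 in KCl cultures. The KCl cultures were lower, from 12 and 20 footprints against 98, 84 and 23 in untreated cultures, and the log2 fold change was -0.79 (SE 0.31, adjusted p = 0.0477). That call was lost by DESeq2 (adjusted p = 0.181) and without untreated culture 1 (-0.84), untreated culture 3 (-0.73), KCl culture 4 (-0.87) or KCl culture 5 (-0.66). For Sec61b, a small translocon subunit, both the RNAseq reads (2, 7 and 1 in untreated and 8 and 13 in KCl cultures) and the footprints lay on the 5′UTR alone, so no level is given.

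Other genes of the pathway were read from lists by role, drawn up with earlier results of these data known. Their counts beside the shares of all genes are therefore a description and not a test. The remaining branch, PERK and the integrated stress response, which works through translation of Atf4, had 8 of 15 listed genes tested. In RNAseq 5 of the 8 rose and 0 fell, and in RF 5 rose and 0 fell, beside 17.5% and 21.2% of all genes called higher, and the median log2 fold changes were 1.14 and 1.38. In TE 1 of the 8 rose (Ddit3) and 1 fell (Ppp1r15b), beside 5.9% of all genes called in either direction. Ppp1r15b, a regulatory subunit of the phosphatase that acts on eIF2α, fell by 0.97 (adjusted p = 0.00039) and is named because of this count. Atf4, the central transcription factor of this branch, rose by 2.21 (SE 0.13) in RNAseq and 2.44 (SE 0.18) in RF. Ddit3, the factor CHOP, rose by 2.56 (SE 0.44, adjusted p = 3.11e-05) in RF and by 2.70 (SE 0.51, adjusted p = 1.44e-05) in TE, from 7, 13 and 5 footprints in untreated and 18 and 24 in KCl cultures, and was at -0.12 (SE 0.28) in RNAseq. Passing the filter took 10 RPKM or more in at least 2 cultures. With these few untreated footprints, the filter may itself have favoured the rise of Ddit3, which is among the 5 rises in RF and is the only one in TE. Cebpb, a leucine zipper factor, rose by 1.88 (SE 0.26) in RNAseq and 1.98 (SE 0.14) in RF.

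The other lists moved in both directions. For their counts, the shares of all genes were 17.5% higher and 15.5% lower in RNAseq. In RF they were 21.2% higher and 19.4% lower, and in TE 5.9% were called in either direction. Of 18 genes tested of the translocon, signal recognition particle, signal peptidase and oligosaccharyltransferase, 3 rose and 2 fell in RNAseq and 2 rose and 3 fell in RF, with Dad1, an oligosaccharyltransferase subunit, at 0.55 and 0.60, the signal peptidase subunit Spcs3 at -0.47 and -0.69, and Srp72 of the signal recognition particle at -0.59 and -0.33. Of 18 other ER folding enzymes, 1 rose and 1 fell in RNAseq, 3 rose and 0 fell in RF, and 1 fell in TE. In that list Hspa13, an ER Hsp70 relative, rose by 0.94 in RF, the sulfhydryl oxidase Qsox1 rose by 0.83 in RNAseq while its TE fell by 0.89, and the thioredoxin-like Tmx3 fell by 0.60 in RNAseq. Of 10 other ERAD genes, 0 rose and 1 fell in RNAseq, and 1 rose and 3 fell in RF. There Nploc4, a cofactor of the extraction motor, fell by 0.84 in RF, and Faf2 fell by 0.46 in RNAseq and 0.43 in RF. Of 5 ER calcium store genes, 0 rose and 2 fell in RNAseq, and 1 rose and 2 fell in RF. The calcium channel Orai1 fell by 0.98 in RNAseq and 1.02 in RF, and Wfs1, an ER membrane glycoprotein, fell by 0.48 in RF.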

How the data were processed

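RNAseq and RF libraries of 5 cultures were analysed, and 1 more KCl culture that the study's methods set aside for its low library size is not analysed here. Per the submitters' processing notes, the authors used Trimmomatic 0.32 for adapters, STAR 2.3.1z8 to take out rRNA, Bowtie2 2.2.2 for alignment to an Ensembl mm10 transcriptome and bedtools 2.20.1 for counting. The study's methods also took degenerate sequences out of the transcriptome before alignment. Whether this left the CDS of Dnajb9 and Sec61b without RNAseq reads was not tested. The deposited values are raw counts per transcript region, multi-mapped reads included, with no normalization. Reads shared with close relatives or overlapping genes are therefore uncertain, and strand was not stated. The region letters were assigned by their relation to annotated lengths (GENCODE M21, GRCm38), and 98.4% of transcripts were matched. One region stays unnamed.

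RNAseq counts of all regions and RF counts of the CDS were tested with edgeR 4.0.16 in R 4.3.3 (quasi-likelihood, TMM, Benjamini-Hochberg over 7258 transcripts), and TE as an assay by treatment interaction in a model that kept the culture as a block, since both libraries of a culture came from 1 lysate. SE is the size of the log2 fold change over the root of F. RPKM was scaled to library totals. Across transcripts, deviations of RNAseq and RF within a culture correlated at -0.07, -0.05, 0.06, 0.02 and 0.02. The RNAseq and RF comparisons share no replicate numbers between groups, so those have no pairing. The edgeR fits of RNAseq, RF and TE were run on simulated counts. These had a single size of change, larger than nearly all changes of the members, a fixed dispersion and no culture effect. That run does not show how well changes of the sizes given here are recovered.

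Members called in any assay, and Calr, Atf6 and Ern1, were given with values per culture. Of each other list, at most 3 called genes were named, those with the largest change. The results of 2 genes of these lists are not reported here. The members and lists were chosen with earlier results of these data known. Alternatives were DESeq2 1.42.0, other filters, scalings, transcript choices and left-out cultures. Leaving out untreated culture 3 with KCl culture 4, and the alternatives of the fit of all transcripts, were chosen after seeing the data. Depth limits precision, and low counts carry counting error.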

Additional observations from a re-analysis of the deposited data

Results flagged for a closer look

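Dnajb9 had footprints on its annotated 5′UTR, a region that none of the comparisons above used, and these stood above the untreated level. It had 40, 22 and 25 footprints there in untreated and 47 and 115 in KCl cultures, which is 8.54 ± 7.45 CPM of the RF total in untreated (SD, n = 3) and 33.0 ± 5.39 in KCl cultures (SD, n = 2). Both KCl cultures were above all untreated cultures, and the annotated 5′UTR is 397 nt long with 3 upstream AUGs. Of the 9 members with at least 100 footprints on the 5′UTR, 1 (11.1%) had both KCl cultures above all untreated ones, compared with 400 of 1983 genes (20.2%). Its RNAseq level rose as well, and no test of the 5′UTR was made. The CDS of Dnajb9 held 0 RNAseq reads, so whether ribosomes favoured the 5′UTR over the CDS cannot be told.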

How the results depend on the processing

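No called member changed direction under the alternatives run, while among members not called at most 4 in RNAseq, 3 in RF and 5 in TE changed sign under 1 setting. The counts of members called moved most. In RNAseq, against 4 higher and 2 lower, library totals in place of TMM gave 2 higher and 4 lower, RNAseq reads on the CDS alone 2 higher and 0 lower, and DESeq2, no filter beyond 1 read and filterByExpr 1 lower each, while no filter gave 6 higher of 26 members. In RF, against 6 higher and 3 lower, library totals gave 3 higher and a fit of all 10 libraries 3 higher, while no filter gave 8 higher of 26 members and filterByExpr 9 higher of 24. The 8 include Dnajb9, whose ribosomal occupancy could not be measured, with 0 RNAseq reads and few footprints on its CDS. With cultures left out, including cultures 3 and 4 together, the counts ran from 1 to 3 higher and 0 to 4 lower in RNAseq and from 3 to 5 higher and 0 to 4 lower in RF. TE gave 0 calls throughout, also with no replicate block. The median untreated RF of the members was 60.8 RPKM with TMM scaling, and the median TE was 3.21 over CDS RNAseq and 2.71 to 2.96 with a culture left out. Of the single-gene values under alternatives, 161 stayed on their side of the threshold and 70 were no longer called. Members called only under an alternative were Atf6b, Creld2 and P4hb in RNAseq and Atf6b, Pdia4, Manf and Ero1l in RF. The RNAseq and RF calls of Herpud1 (1.18 to 1.86 and 1.06 to 1.66), the RF calls of Derl1 and Atf6, and the RNAseq calls of Dnajb9 (1.71 to 2.24) and Edem1 (0.89 to 1.09) held under all alternatives run for them. The cause of the moves was not tested. RF depth was lowest in cultures 3 and 4, and its part in the calls was not tested.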
